A study of Mus musculus with 2 samples.

Results

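The genes Mir23a, Mir27a and Mir24-2 on mouse chromosome 8 and their paralogs Mir23b, Mir27b and Mir24-1 on chromosome 13 form a pair of clusters, each of which is thought to be cut from 1 primary transcript. The 6 genes were taken by their GENCODE M21 names from a table of 2202 microRNA (miRNA) genes. Small RNA was sequenced from adrenal glands of female adult mice, 8 to 10 months old, of the strain 5xFAD/CAST. It joins 5xFAD, a transgenic Alzheimer's disease model, to CAST, which goes back to wild castaneus mice, and whether a given animal carried the transgene is not labelled. There is 1 group of 2 libraries, biological replicates 1 and 2. Their biosamples are separate but name 1 donor, so the spread between these samples, which the SDs give, may be technical. With 1 group there is no contrast between conditions, and the comparisons are those between the clusters, between the genes of 1 cluster and between the libraries.

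Each miRNA gene is transcribed into a hairpin that is cut into a 5p and a 3p strand, and the strand loaded into the silencing complex pairs with messenger RNAs mainly through its seed, bases 2 to 8. In these clusters the 3p strands are the ones usually reported as the abundant products. The clusters are known from endothelial cells, where miR-23 and miR-27 have been linked to vessel sprouting, and miR-27 is also known to restrain fat cell formation. In human adrenocortical cells miR-24 has been reported to lower the enzymes of the last steps of cortisol and aldosterone synthesis.

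The mature sequences are shown because they decide which reads can be given to 1 cluster. They come from RefSeq (GRCm38.p6), which held hairpins of all 6 genes, and the seed is in capitals.
miR-23a-3p: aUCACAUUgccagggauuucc
miR-27a-3p: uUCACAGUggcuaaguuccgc
miR-27b-3p: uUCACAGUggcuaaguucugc
miR-24-3p: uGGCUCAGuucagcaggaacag
miR-24-2-5p: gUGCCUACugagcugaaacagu
miR-24-1-5p: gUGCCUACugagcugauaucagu

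miR-27a-3p and miR-27b-3p share their seed and differ by 1 substitution over 21 bases, C19U, counted from 1 at the 5′ end with the base of miR-27a-3p first. miR-24-3p is the same 22 bases from both Mir24-2 and Mir24-1, whereas the 5p strands of these genes share their first 16 bases and then part. The first 18 bases of miR-23a-3p, seed included, also stand in the Mir23b hairpin, and the first 18 of miR-27a-3p in the Mir27b hairpin. Outside the 6 genes, no mature miRNA listed in the RefSeq table had the seed UCACAUU or UCACAGU. The seed GGCUCAG of miR-24-3p was shared by miR-6413, miR-6410, miR-6369 and miR-5124b, whose genes had 0 CPM in both libraries.

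The longest run shared by each pair of paralogous hairpins is in capitals below, and it overlaps the 3p strand listed for Mir23a, Mir27a, Mir27b, Mir24-2 and Mir24-1.
Mir23a: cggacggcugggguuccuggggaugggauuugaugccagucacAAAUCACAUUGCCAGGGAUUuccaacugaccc
Mir23b: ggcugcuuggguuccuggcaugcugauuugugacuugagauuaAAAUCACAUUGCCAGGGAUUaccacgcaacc
Mir27a: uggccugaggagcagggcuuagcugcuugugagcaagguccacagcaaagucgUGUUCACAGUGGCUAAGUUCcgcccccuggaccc
Mir27b: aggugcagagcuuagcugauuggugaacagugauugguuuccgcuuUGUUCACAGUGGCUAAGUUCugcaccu
Mir24-2: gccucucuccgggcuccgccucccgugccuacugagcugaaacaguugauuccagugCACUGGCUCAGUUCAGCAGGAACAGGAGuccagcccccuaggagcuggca
Mir24-1: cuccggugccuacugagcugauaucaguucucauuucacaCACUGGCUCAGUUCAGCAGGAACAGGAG

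Mir23a and Mir23b were 73.8% identical in a global alignment, Mir27a and Mir27b 61.3%, and Mir24-2 and Mir24-1 54.5%. The shared run was 20 bases for the miR-23 and for the miR-27 hairpins and 28 bases for the miR-24 hairpins. A stretch of 20 bases was unique among annotated miRNA hairpins at 98.2% of its positions in Mir23a and at 87.5% in Mir24-2, and at 98.2% in Mir23b and 81.6% in Mir24-1. The deposited tables count reads with several genomic matches apart from all genes. A read of the whole miR-24-3p strand matches both loci, so it adds to neither Mir24-2 nor Mir24-1. A read that holds only the first 18 bases of miR-23a-3p or miR-27a-3p also matches both hairpins of its pair.

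In the mouse genome build mm10 the Mir23a cluster spans 404 bases. Mir23a (ENSMUSG00000065611.1) lies at chr8:84208518-84208592, Mir27a (ENSMUSG00000065444.1) at chr8:84208672-84208758 and Mir24-2 (ENSMUSG00000065541.1) at chr8:84208815-84208921, all on the plus strand. Mir23a and Mir27a overlap no other annotated gene, and the last 2 bases of Mir24-2 overlap an exon of the lincRNA gene Gm26532. The Mir23b cluster is longer, at 792 bases, and lies within 2010111I01Rik, the aminopeptidase gene now called Aopep. Mir23b (ENSMUSG00000065599.2) lies at chr13:63300484-63300557 in an intron, whereas Mir27b (ENSMUSG00000065475.2) at chr13:63300712-63300784 and Mir24-1 (ENSMUSG00000105904.1) at chr13:63301208-63301275 lie whole inside exons of annotated transcripts of that gene. All 3 also lie opposite to an intron of Fancc, a DNA repair gene. The gaps between hairpins are 79 and 56 bases on chromosome 8, against 154 and 423 bases on chromosome 13. On the minus strand, Mir3074-2 covers 83 of the 107 bases of Mir24-2, and Mir3074-1 covers all 68 bases of Mir24-1.

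**Figure D1:**
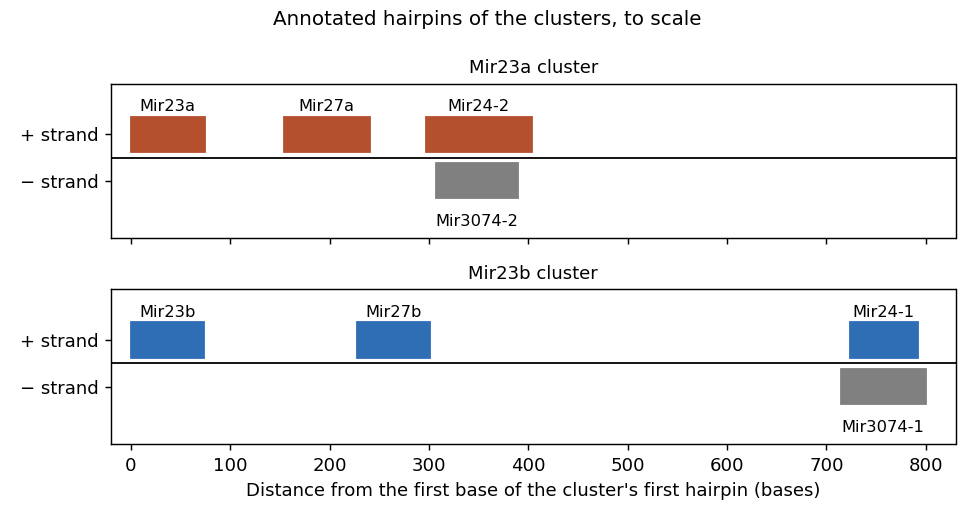
Map of the annotated hairpins, with the distance in bases from the first base of each cluster on the x axis and the strand on the y axis. The Mir23a cluster is more compact, at 404 bases, than the Mir23b cluster, at 792 bases, and in both an annotated Mir3074 gene (grey) lies opposite to the miR-24 gene.

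The count column that holds 1 strand, called the strand column here, had 3635851 miRNA-gene reads for replicate 1 and 6924829 for replicate 2. Levels are given as CPM, reads per 1000000 reads of that column. A gene was called detected at 10 or more reads in each library, which 356 genes (16.2% of the table) reached, among them all 6 genes. A list of endocrine-cell miRNAs, with 4 of 4 genes detected, summed to 50709 CPM in replicate 1 and 48363 CPM in replicate 2, nearly all of it from Mir375. Of the lists for other tissues, Mir122 of liver stood at 78.1 and 108 CPM, and the kidney list, with 2 of 3 genes detected, summed to 55.8 and 32.8 CPM. The pancreas list had 0 of 3 genes detected. The striated muscle list had 0 of 6 genes detected, and its 4 genes at 0 are copies of miR-1a and miR-133a genes. Its other genes, Mir206 and Mir208b, had 2.75 and 0.275 CPM in replicate 1, and 0.866 and 0.289 CPM in replicate 2. The neuronal list summed to 641 and 470 CPM, from Mir137, with 4 of 6 genes at 0. Those 4 are copies of miR-124 and miR-9 genes. The mature strands of miR-1a, miR-133a, miR-124 and miR-9 are made at several loci, so the 0 of these muscle and neuronal genes sets no limit. The endocrine list also holds copies, Mir7-1 and Mir7-2, and so does the kidney list, with Mir194-1 and Mir194-2. The sums of these lists are thus of assigned reads only. No list held a miRNA specific to the adrenal cortex, so the labelled tissue was checked only against other tissues.

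Together the 6 genes took 7.49% (interval 7.46 to 7.52%) of all strand-column reads in replicate 1 and 6.53% (6.51 to 6.55%) in replicate 2. All intervals are exact Clopper-Pearson 95% intervals of counting error. The miR-23 genes made up nearly all of this, with 91.8% and 89.6% of the reads of the 6 genes, and the miR-24 genes had 0.528% and 0.456%. Summed over both loci, assigned reads of miR-23 stood at 63633 ± 7272 CPM (SD, n = 2). Those of miR-27 stood at 6120 ± 532 CPM and those of miR-24 at 346 ± 69.0 CPM. Reads of the whole strand that both miR-24 genes make are assigned to neither gene. The share and the sum of the miR-24 genes are thus not the level of miR-24 as a whole. In these bulk samples, fewer cells of a type and less RNA per cell cannot be told apart.

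Mir23b was the highest of the 6 genes, at 31167 CPM in replicate 1 and 32736 CPM in replicate 2, or 31951 ± 1110 CPM (SD, n = 2) and rank 11 of all miRNA genes. Mir23a followed at 37608 and 25755 CPM, or 31682 ± 8382 CPM and rank 12. The order of these genes differed between the libraries, so their levels did not differ beyond the spread. Mir27b had 4676 and 5356 CPM, or 5016 ± 481 CPM and rank 34. Mir27a had 1068 and 1140 CPM, or 1104 ± 51.2 CPM and rank 71. From the miR-23 genes down to Mir24-1, no other neighbors in this order overlapped between their libraries.

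Mir24-2 had 332 CPM in replicate 1 and 203 CPM in replicate 2, or 267 ± 90.9 CPM (SD, n = 2) and rank 135. These values rest on 1206 and 1407 reads. Mir24-1 was the lowest of the 6 genes, with 63.5 and 94.4 CPM from 231 and 654 reads, or 79.0 ± 21.9 CPM and rank 192. Both miR-24 genes were far above the 0.825 and 0.433 CPM that a count of 0 allows in replicates 1 and 2, taken as 3 reads. Since reads of the shared miR-24-3p strand are not assigned, these levels hold for reads that match only 1 locus and not for miR-24 as a whole.

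**Figure D2:**
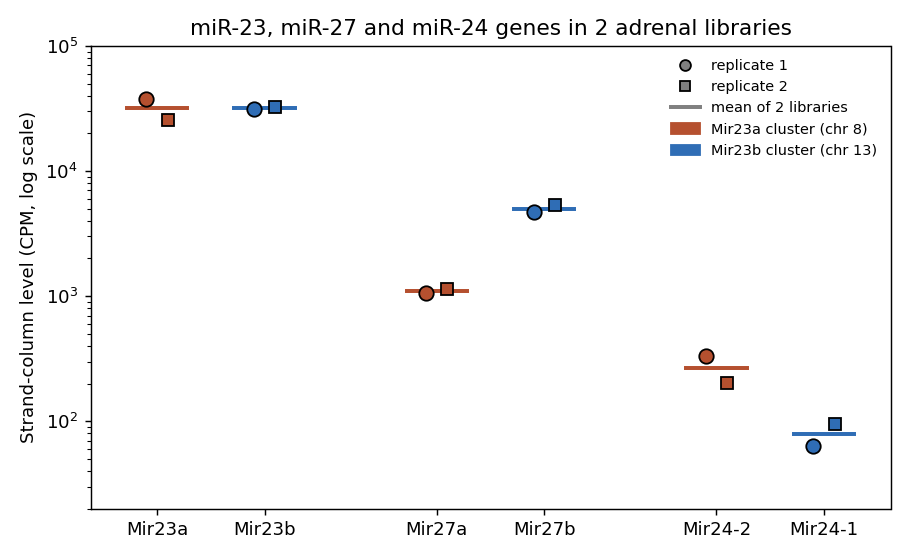
Strand-column level of each gene in CPM on a log scale, with replicate 1 as circles, replicate 2 as squares and the mean of the 2 libraries as a line. The miR-23 genes lie together at 31682 and 31951 CPM. Mir27b at 5016 CPM lies above Mir27a at 1104 CPM, and Mir24-2 at 267 CPM lies above Mir24-1 at 79.0 CPM. The levels of Mir24-2 and Mir24-1 lack reads of the whole strand that they share.

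The genes nearest in level were found by the sum over both libraries of the absolute difference in log2 CPM, outside the 6 genes and over 2 libraries only. Mir23a was nearest to Mir139, at 36909 CPM in replicate 1 and 38841 CPM in replicate 2 and a summed difference of 0.62, and next to Mir378a with 0.79. Mir23b was nearest to Mir22, with 0.37, and next to Mir139, with 0.49. Mir27b lay beside Mir382 and Mir30d, with 0.17 and 0.30, and Mir27a beside Mir487b and Mir409, with 0.19 and 0.28. Mir24-2 lay beside Mir148a and Mir339, with 0.06 and 0.17. Mir24-1 lay at the level of Mir122, the liver miRNA, with 0.50, and of Mir5099, with 0.61.

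**Figure D3:**
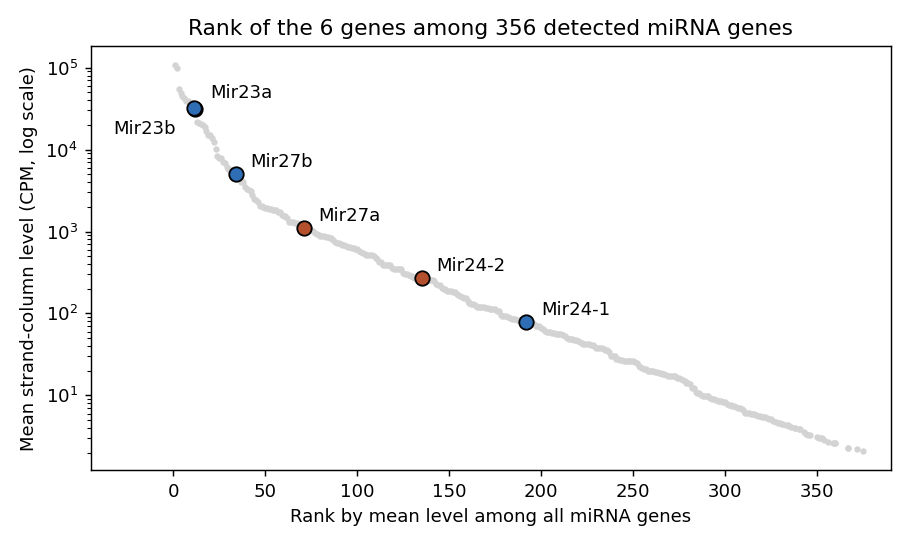
Mean strand-column level in CPM on a log scale against rank for the 356 detected genes (grey), with the Mir23a cluster in red-brown and the Mir23b cluster in blue. The genes of each cluster are spread along the curve, with ranks 12, 71 and 135 for Mir23a, Mir27a and Mir24-2, and 11, 34 and 192 for Mir23b, Mir27b and Mir24-1. The Mir23a point lies largely under that of Mir23b.

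The first comparison was between the clusters. Summed over its 3 genes, the Mir23a cluster had 39008 CPM in replicate 1 and 27098 CPM in replicate 2, and the Mir23b cluster had 35907 and 38187 CPM. The log2 ratio of the Mir23a cluster over the Mir23b cluster was 0.12 in replicate 1 and -0.49 in replicate 2, a mean of -0.19 ± 0.43 (SD, n = 2). The sign differed between the libraries, so by assigned reads neither cluster was the higher beyond the spread. These sums lack reads of the whole miR-24-3p strand. They are mostly reads of the miR-23 genes, with a mean of 95.7% from Mir23a and 86.3% from Mir23b in their clusters. With 2 libraries an exact test over sign changes cannot give a two-sided p below 0.5, and no test of these ratios was made.

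The paralog pairs divided their reads in different ways. Mir23a held 54.7% of the reads of the miR-23 pair in replicate 1 (54.5 to 54.9%) and 44.0% in replicate 2 (43.9 to 44.2%). Its log2 ratio over Mir23b was 0.27 and -0.35, or -0.04 ± 0.44 (SD, n = 2). Mir27a held 18.6% of the miR-27 pair in replicate 1 (18.1 to 19.1%) and 17.5% in replicate 2 (17.2 to 17.9%). Its log2 ratio over Mir27b was -2.13 and -2.23, or -2.18 ± 0.07, so Mir27b had 4.38 and 4.70 times the reads of Mir27a. This was the paralog pair whose ratio differed least between the libraries. For the miR-23 and miR-27 pairs, reads that hold only the first 18 bases of the 3p strand match both loci. Such reads would add to neither gene, and the intervals do not allow for their loss.

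Mir24-2 held 83.9% of the reads of the miR-24 pair in replicate 1 (81.9 to 85.8%) and 68.3% in replicate 2 (66.2 to 70.3%). Its log2 ratio over Mir24-1 was 2.38 and 1.11, or 1.74 ± 0.90 (SD, n = 2), positive in both libraries and variable in size. By assigned reads, Mir27a thus lay below Mir27b and Mir24-2 above Mir24-1 in both libraries, while the miR-23 genes had no fixed order. Reads of the whole strand shared by the miR-24 genes are in neither count. The order of Mir24-2 and Mir24-1 is therefore that of the remaining reads, and their order with the shared strand included was not tested. Reads copied by PCR without molecular identifiers are not independent molecules, and the intervals do not allow for this.

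**Figure D4:**
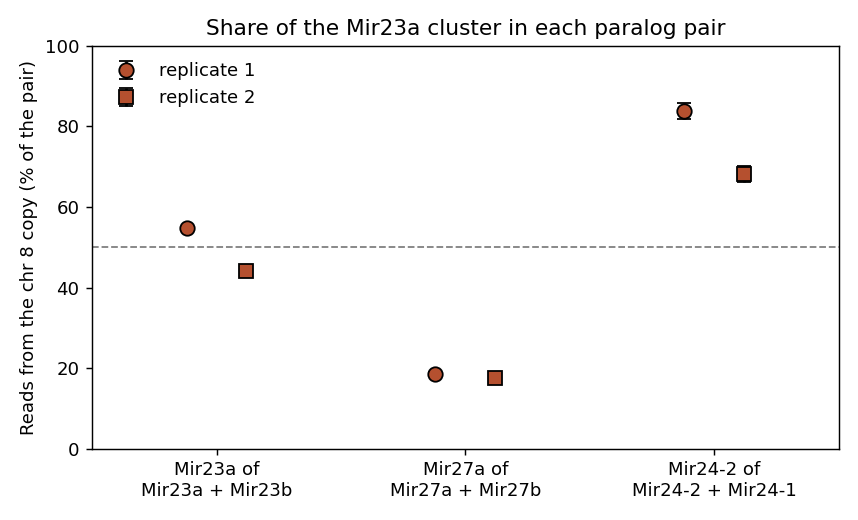
Share of reads from the chromosome 8 copy in each paralog pair, in percent, by library, with exact 95% intervals as bars and a dashed line at equal shares. The miR-23 points lie on either side of the line at 54.7% and 44.0%. The miR-27 points lie at 18.6% and 17.5%, and the miR-24 points at 83.9% and 68.3%. The miR-24 counts lack reads of the whole strand shared by both genes.

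The next comparison was between the genes of 1 cluster. In both clusters the miR-23 gene was the highest, the miR-27 gene followed and the miR-24 gene was the lowest, in both libraries. This order and the shares that follow are of assigned reads, which lack those of the shared miR-24-3p strand. Mir23a took 95.7% ± 0.968 of the reads of its cluster (SD, n = 2), Mir27a 3.47% ± 1.04 and Mir24-2 0.800% ± 0.0711. Mir23b took 86.3% ± 0.759 of its cluster, Mir27b 13.5% ± 0.709 and Mir24-1 0.212% ± 0.0498. The share of the leading gene did not overlap between the clusters, with 96.4% in replicate 1 for Mir23a against 86.8% for Mir23b, and 95.04% against 85.7% in replicate 2.

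Mir23a had 35.2 times the reads of Mir27a in replicate 1 and 22.6 times in replicate 2, a log2 ratio of 4.82 ± 0.45 (SD, n = 2). Mir23b had 6.66 and 6.11 times the reads of Mir27b, a log2 ratio of 2.67 ± 0.09. The step was thus larger on chromosome 8 in both libraries, and steadier on chromosome 13. Mir27a exceeded Mir24-2 by a log2 ratio of 2.09 ± 0.57, and Mir27b exceeded Mir24-1 by 6.01 ± 0.27. The counts of both miR-24 genes lack the reads of the shared miR-24-3p strand, so these steps are ratios of assigned reads and not of molecules.

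From its highest to its lowest gene the Mir23a cluster spanned 6.91 ± 0.11 in log2 CPM (SD, n = 2) and the Mir23b cluster 8.69 ± 0.35. Over the 42 other clusters with at least 2 detected genes on 1 strand, with neighbors within 10 kb, this span had a median of 4.15 and ran between 0.12 and 11.4. It was above that of the Mir23a cluster in 6 of these and above that of the Mir23b cluster in 3, which have 7, 13 and 33 detected genes. Among the 6 other clusters with 3 detected genes, the median was 4.17 and the highest, 7.44, was that of Mirlet7d, Mirlet7f-1 and Mirlet7a-1. These are descriptions, with no test. Both spans end at a miR-24 gene, whose count lacks the reads of the shared miR-24-3p strand. Other clusters, the let-7 cluster named here included, also hold genes that may share a mature strand with another locus. Their spans were not corrected for this, so they are not a reference free of such loss. Without the miR-24 genes the log2 span was 4.82 for Mir23a over Mir27a and 2.67 for Mir23b over Mir27b. The first of these lies above the median of 4.15 of the other clusters and the second below it. Genes that may share a strand were left in those clusters, and some have many more genes. The median is thus not a like measure for spans of 2 genes.

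**Figure D5:**
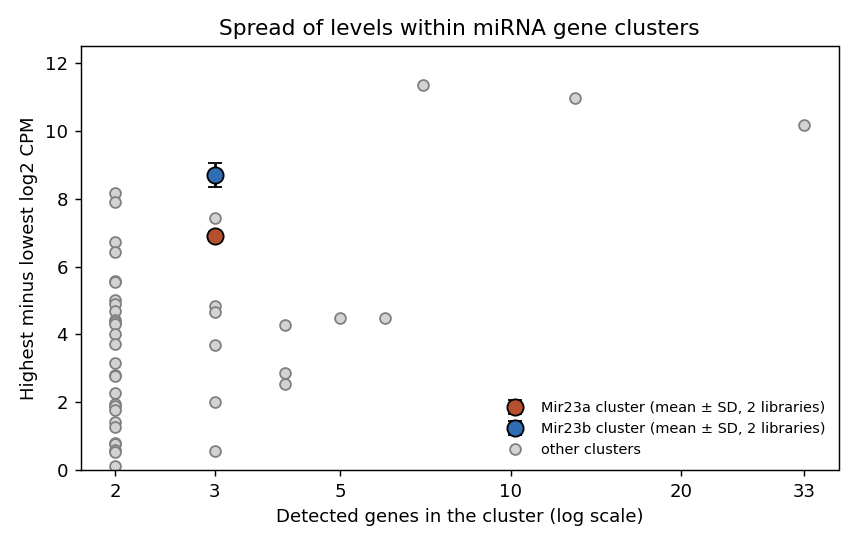
Highest minus lowest log2 CPM within each cluster, as the mean of the 2 libraries, against the number of detected genes on a log scale. The Mir23a cluster at 6.91 and the Mir23b cluster at 8.69 (bars, SD of the 2 libraries) lie above the median of 4.15 of the other clusters (grey). Both spans rest on miR-24 genes, whose shared strand is not assigned. Without these genes they were 4.82 and 2.67, and the Mir23b cluster lay below that median. The other clusters had no genes left out, so the median is not a like measure for these 2 values.

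Genes for which RefSeq lists a mature sequence that another gene also makes, as it does for Mir24-2 and Mir24-1, numbered 94 of those matched by symbol. Of these 48.9% were detected, with a median level of 42.2 CPM among the detected. Of the 924 matched genes with no such sequence 30.0% were detected, with a median of 117 CPM. Mir24-2 at 267 CPM lay above both medians, and Mir24-1 at 79.0 CPM lay between them.

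The last comparison was between the libraries, as replicate 1 over replicate 2. By Fisher's exact test with Benjamini-Hochberg adjustment over the 455 genes with at least 10 reads in both libraries together, all 6 genes differed, 2 higher and 4 lower in replicate 1. The test takes in only counting error and sets library against library, not condition against condition, and it called 52.5% of all genes tested (35.6% higher and 16.9% lower in replicate 1). Mir23a had 37608 CPM in replicate 1 and 25755 CPM in replicate 2, and its log2 ratio was 0.55. Mir24-2 was also higher, with a log2 ratio of 0.71 (adjusted p = 2.52e-34, Fisher's exact test). Their cluster neighbor Mir27a was lower, with -0.09 (adjusted p = 0.00182, Fisher's exact test).

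All 3 genes of the Mir23b cluster were lower in replicate 1. The log2 ratio was -0.07 for Mir23b (adjusted p = 2.73e-42, Fisher's exact test), -0.20 for Mir27b (adjusted p = 9.85e-49, Fisher's exact test) and -0.57 for Mir24-1 (adjusted p = 3.29e-07, Fisher's exact test). Over the detected genes the median absolute log2 ratio was 0.40, above the sizes for Mir27a, Mir23b and Mir27b and below those for Mir23a, Mir24-2 and Mir24-1. The median signed log2 ratio was 0.19, and TMM normalization lowered every ratio by 0.20. With that scaling the calls were 25.5% higher and 27.3% lower in replicate 1. The 6 genes kept their directions, at 0.35 for Mir23a, 0.51 for Mir24-2, -0.29 for Mir27a, -0.27 for Mir23b, -0.40 for Mir27b and -0.77 for Mir24-1.

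With the spread between the libraries included, through the exact test of edgeR at 1 common dispersion, none of the 6 genes was called, with an adjusted p of 1 for each. Their unadjusted p ran between 0.278 and 0.913, and 0 of 6 were under 0.05. That test called 5 of 455 genes (1.1%), and it takes its dispersion from the same libraries, so no replicate check of it exists. On simulated libraries most detected genes had been changed, and the dispersion estimated over both libraries took up those changes. The test then called no changed gene. That setting differs from the real data, so it does not measure how often real changes are missed. The dispersion of the real data also comes from both libraries, so the lack of a call does not show that the libraries were alike for these genes. Within the Mir23a cluster the library log2 ratios spanned 0.80 and within the Mir23b cluster 0.50, beside a median of 0.80 over the 42 other clusters.

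Markers of vessels and blood were compared between the libraries in the same way. All 14 miRNAs of a vessel wall and angiogenesis list were detected, and together they summed to 90447 CPM in replicate 1 and 71313 CPM in replicate 2. Of these 9 were higher and 1 lower in replicate 1 by Fisher's exact test, which called 35.6% of all genes tested higher and 16.9% lower. Their median log2 ratio was 0.32, beside 0.19 over all detected genes. With TMM totals and the exact binomial test, 6 of the 14 were higher and 4 lower, beside 25.5% and 27.3% of all genes, and their median was 0.12. Mir126a, the endothelial miRNA, had 56684 CPM in replicate 1 and 41532 CPM in replicate 2, a log2 ratio of 0.45. By Fisher's exact test both genes of the red cell list were higher in replicate 1, summing to 427 and 175 CPM. All 4 genes of the leukocyte list were higher there too, summing to 1147 and 854 CPM. Other miRNAs of these cells were not compared, so the calls hold for the listed genes only. With TMM totals both red cell genes and 2 of the 4 leukocyte genes were called higher. edgeR's exact test called 0 genes of these 3 lists, with 1 red cell gene and no other under an unadjusted p of 0.05. The part of these cells in the library difference of Mir23a was not tested.

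The targets of miR-27 partly overlap those of miR-128, whose seed is offset by 1 base. Its genes were low here. Mir128-1 had 31.6 CPM in replicate 1 and 52.4 CPM in replicate 2, and Mir128-2 had 2.48 and 7.22 CPM, which for replicate 1 rests on 9 reads.

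The count column for both strands, used as a check, held the same reads for Mir23a, Mir27a, Mir23b and Mir27b as the strand column. Mir24-2 and Mir24-1 had 0 reads there in both libraries. Their strand-column reads stood again as opposite-strand reads of the genes that overlap them, with 1206 and 1407 for Mir3074-2 and 231 and 654 for Mir3074-1. Over the whole table, 24 detected genes had 0 reads in the both-strand column of both libraries. On their own strand Mir3074-2 had 0 and 1 reads and Mir3074-1 had 15 and 6.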

How the data were processed

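Each library has 1 table of raw read counts, as deposited by the authors, with 3 unnamed columns. Assembly (mm10) and annotation (GENCODE M21) are stated in the deposited notes. Aligner, counter and trimming: not given in the sources used here. From their values the columns were taken as both strands, 1 strand and the opposite strand, since in each library the strand columns together exceeded the both-strand column by exactly 2 times the ambiguous reads. The strand column was used throughout. Entries that name no gene were left out of all totals. They held 16.1% unmapped, 31.6% multimapping, 5.55% unannotated and 6.12% ambiguous reads of 7774567 in replicate 1, and 16.5%, 33.6%, 4.99% and 5.24% of 15391360 in replicate 2.

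CPM used the strand-column total. Shares have exact Clopper-Pearson 95% intervals. Log2 ratios between libraries used an offset of 0.5 reads. Fisher's exact test (two-sided) was adjusted over all 455 genes. The alternatives were TMM or DESeq2 size factors with an exact binomial test, edgeR's exact test (dispersion over 356 genes, biological coefficient of variation 31.2%), no low-count filter, the both-strand column, all reads as denominator, miR-24 genes left out of the cluster sums, and each library left out. Both tests were checked on simulated data. Fisher's test recovered most of the known changes, and fewer of the smallest. edgeR's exact test recovered large changes when given the dispersion used in the simulation. At a dispersion estimated from the simulated libraries it called no changed gene. Most detected genes had been changed there, and that estimate used no TMM factors, unlike the one for the real libraries. All 2202 gene identifiers matched the annotation. The genes named are the 6 genes, the genes that overlap them, those sharing a seed, the 2 nearest in level to each, and members of 10 lists (vessel wall, endocrine, neuronal, liver, striated muscle, red cell, leukocyte, kidney, pancreas, offset seed). The genes and lists were chosen with earlier results of these data known. The software was scipy 1.17.1, numpy 2.4.6, pandas 2.3.3, Biopython 1.88 and matplotlib 3.10.9 under Python 3.11.15, and DESeq2 1.42.0 and edgeR 4.0.16 under R 4.3.3.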

Additional observations from a re-analysis of the deposited data

Results flagged for a closer look

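Opposite-strand reads at Mir24-1 lay above the limit of 3 reads that a count of 0 allows, with 15 reads in replicate 1 and 6 reads in replicate 2. They were noted because the comparisons of Mir24-1 use its own strand only, and the same reads are those counted for Mir3074-1.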

How the results depend on the processing

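The both-strand column lowered the log2 span within the Mir23a cluster to 4.82 and within the Mir23b cluster to 2.67, since it has no miR-24 read. It gave no value for the ratio of Mir24-2 over Mir24-1. edgeR's exact test lowered the number of genes called between the libraries to 5 and the number among the 6 genes to 0, as it adds the spread between the libraries to counting error. Leaving out 1 library gave a log2 ratio between -0.49 and 0.12 for the clusters, -0.35 and 0.27 for the miR-23 genes, -2.23 and -2.13 for the miR-27 genes, and 1.11 and 2.38 for the miR-24 genes. Without the miR-24 genes the cluster ratio was -0.20. This leaves out only their assigned reads, so the effect of the unassigned miR-24-3p strand was not tested. Calls by Fisher's test numbered 217 in the both-strand column (4 of the 4 genes with reads there) and 231 with no low-count filter, against 239, and an exact binomial test with TMM or DESeq2 size factors called 240. Calls in the vessel, red cell and leukocyte lists under these size factors and edgeR's test were added after seeing the data, and with DESeq2 size factors 7 vessel genes were higher and 4 lower. With all reads as denominator, levels of all 6 genes were lower, at 14588 CPM for Mir23a and 14652 CPM for Mir23b. Depth limits most the value of Mir24-1, which rests on 231 reads in replicate 1.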
